A study of Saccharomyces cerevisiae with 2 samples.

Results

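The features described here are the 70 array features whose ratio was negative by at least 2-fold on average, out of 2738 with a value on both arrays and 6207 in the table. They were chosen by their measured log2 ratios: a mean of −1 or less over the 2 arrays, and a ratio negative by at least 1.5-fold on each array, in the values as deposited. By these limits 77 features were negative, 2.81% of those with both values, and 7 of them (YDC1, COX7, FAS2, MTH1, RRP9, GSC2 and CYC7) were left out by name. Since the ratios chose the members, the ratios below describe them and no test of them is given.

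RNA came from a mid2 mutant of budding yeast in the BY4741 background, a haploid background of a cells, grown in rich medium at 24 °C. One portion of the culture received Congo Red at 30 µg/ml and the other did not, and cells were harvested at 4 h. Both portions carried the mid2 mutation and wild-type cells were not analysed here, so the values cannot be assigned to the absence of Mid2. Each array compared treated with untreated RNA by 2 dyes, with Cy3 on the treated RNA of array 1 and Cy5 on that of array 2.

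Mid2 is a sensor in the plasma membrane that reports stress on the cell wall to the kinase cascade of the cell wall integrity pathway. Congo Red is a dye that attaches to wall polysaccharides such as chitin and hampers the building of a normal wall. The pathway ends in the kinase Slt2 and the transcription factor Rlm1, whose known targets in budding yeast are mostly genes for wall proteins and wall synthesis.

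The labels do not state which channel was divided by which. The 2 columns correlated positively across the 2738 features (Pearson r = 0.48, Spearman rho = 0.34), across features that share the same 2 arrays and are no independent replicates. The dyes were nevertheless swapped between them. If both columns had been turned to treated over untreated, a negative ratio would be a lower transcript level with Congo Red. The positive correlation alone does not settle that reading, and it was not tested. Ratios are therefore called negative or positive here. In RNA of whole cultures, fewer cells with a transcript and less transcript per cell cannot be told apart.

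Array 1 held 2832 values and array 2 held 3440, and 2673 features had none. The medians over features with both values were −0.27 and −0.18, with standard deviations of 0.96 and 0.57, so array 1 spread more widely and neither column was centred. Of 7 marker genes of a cells, 5 had both values, given here as log2 ratios on arrays 1 and 2. MFA1, the a-factor gene, had −0.43 and −0.82, and MFA2 had −0.68 and −0.98. AGA2 had −0.67 and −0.58, and ASG7 had −0.63 and −0.59. STE2, the receptor of alpha factor, had 2.02 and −0.12. Of 4 marker genes of alpha cells, 1 had both values, MF(ALPHA)2 at −0.98 and 0.07. Ratios give no level, so these values do not check the mating type.

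Across all features, limma called 0 of 2738 after Benjamini-Hochberg adjustment at 0.05 (0.0%), with 0.123 as the lowest adjusted p. Without adjustment, at p under 0.05, it called 371 features, 199 negative and 172 positive, and 366 with robust moderation, which also called 0 after adjustment. The fit had 1 residual degree of freedom, and its p-values measure only the spread between these 2 arrays, which may be technical. By the limits of size, 113 features were positive, 4.13% of those with both values.

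Most members were moderate in their mean and much lower on array 1. On array 1 their log2 ratios ran from −6.15 through a median of −1.71 to −0.81, and on array 2 from −3.50 through −0.89 to −0.60. The mean ran from −3.52 through −1.34 to −1.01, and the median corresponds to a 2.53-fold negative ratio. The mean ratios of RMR1 and IRC20 were 11.5-fold and 11.4-fold negative. In 10 members the mean was −2 or less, and in 44 it was above −1.5. The ratio on array 1 was the lower one in 64 of the 70 members (91.4%), against 74 of the 113 positive features (65.5%) that lay further from 0 on array 1.

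**Figure D1:**
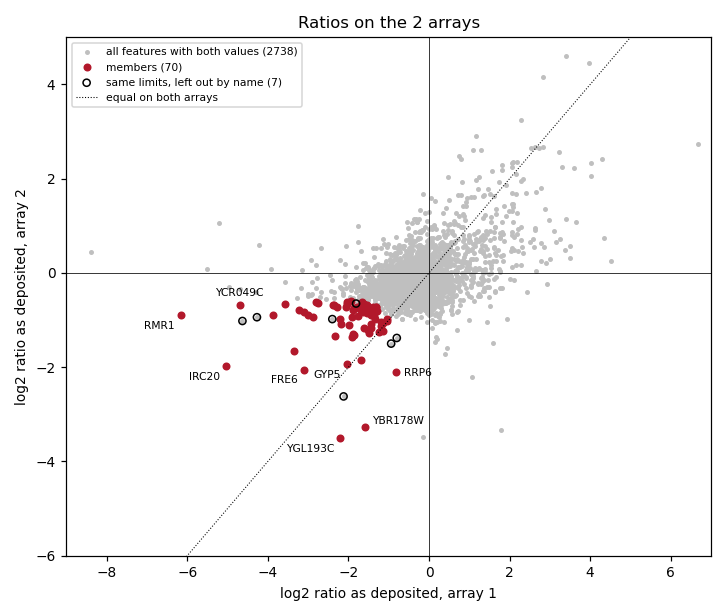
Log2 ratio on array 1 (horizontal) against array 2 (vertical) for the 2738 features with both values, with the 70 members in red, the 7 features left out by name as open circles and equality as a dotted line. Most members lie above the dotted line, lower on array 1 than on array 2, and YGL193C and YBR178W lie below it.

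The 2 arrays disagreed more on the members than on most features. The rule used these same 2 ratios, so the disagreement is not independent of the choice of members. The median absolute difference between arrays was 0.88 for members, 0.43 for all features with both values and 0.70 for the positive features. The median standard deviation of a member over its 2 values was 0.62. The arrays lay within 1 of each other in 41 members and within 0.5 in 17. In 24 members both ratios were −1 or less. Of the 77 lowest features of each array, 18 were shared, 23.4% of each list, and 14 of these were members.

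**Figure D2:**
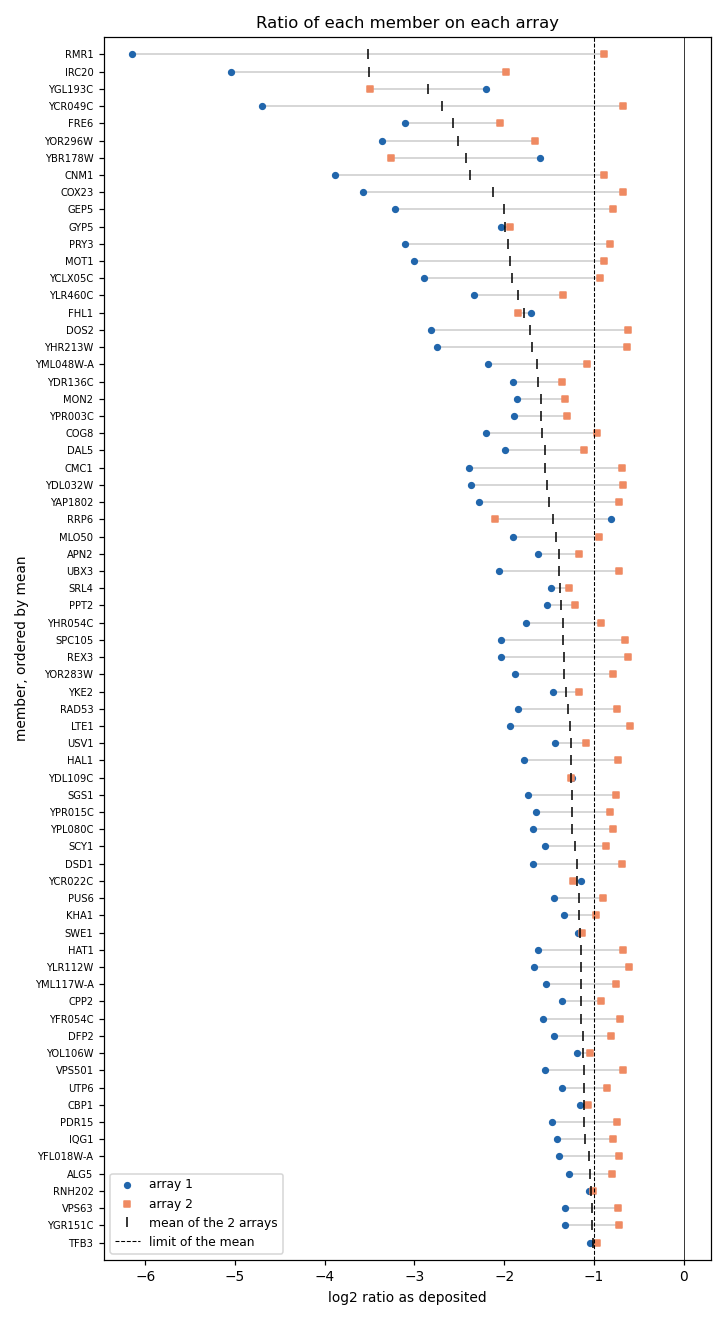
Log2 ratio of each member on array 1 and array 2 (points joined by a line) with its mean, ordered by mean. The lines are long for RMR1, YCR049C and IRC20, and the points nearly coincide for YDL109C, RNH202 and SWE1.

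The 2 lowest means belonged to genes of recombination and genome maintenance. RMR1, a gene needed for meiotic recombination, had −6.15 on array 1 and −0.89 on array 2 (mean −3.52 ± 3.72, SD, n = 2). IRC20, a helicase-like ubiquitin ligase, had −5.04 and −1.98 (−3.51 ± 2.16). The arrays lay further apart in RMR1 than in any other member, and its mean rests largely on array 1. IRC20 was more than 2-fold negative on both.

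Among the members, the lowest values on array 2 were in features without a gene name. YGL193C, an open reading frame with no standard name, had −2.20 and −3.50 (mean −2.85 ± 0.92, n = 2), the lowest ratio of any member on array 2. YBR178W, which has no entry in the gene table, had −1.60 and −3.26 (−2.43 ± 1.17). Both were more negative on array 2, as were only RRP6, FHL1, YCR022C and YDL109C among the other members. YCR049C, also without an entry, had the opposite pattern, at −4.70 and −0.68 (−2.69 ± 2.84), and YOR296W, a reading frame without a name, had −3.36 and −1.66 (−2.51 ± 1.20).

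Metal handling and the assembly of cytochrome oxidase were represented by 3 members. FRE6, a metal reductase of the vacuole membrane, had −3.10 and −2.05 (mean −2.57 ± 0.74, n = 2). COX23, a protein of the mitochondrial intermembrane space needed for cytochrome oxidase assembly, had −3.57 and −0.67 (−2.12 ± 2.05). CMC1, a copper-binding protein of the same compartment, had −2.39 and −0.69 (−1.54 ± 1.20). FRE6 was at least 4-fold negative on both arrays, whereas COX23 and CMC1 were near the limit for each array on array 2. COX7, a cytochrome oxidase subunit left out by name, had −4.27 and −0.94.

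These groups by role were assembled after the values were seen, so their sizes describe the members and support nothing. The other mitochondrial members were 4. CNM1, which tethers nucleus and mitochondria, had −3.88 and −0.89 (mean −2.38 ± 2.11, n = 2), and GEP5, needed to keep the mitochondrial genome, had −3.22 and −0.79 (−2.0 ± 1.72). Both were strongly negative on array 1 and under 2-fold negative on array 2. PPT2, which activates the mitochondrial acyl carrier protein, had −1.52 and −1.21. CBP1, which stabilises the mitochondrial COB transcript, had −1.15 and −1.06, and its 2 arrays differed by 0.09.

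Vesicle traffic gave 6 members, with means from −1.99 to −1.02. GYP5, a GTPase-activating protein for the Rab protein Ypt1, had −2.04 and −1.94 (mean −1.99 ± 0.07, n = 2), so its 2 arrays were nearly equal. MON2, a scaffold of the Golgi and endosomes, had −1.86 and −1.32. COG8, a subunit of a Golgi tethering complex, had −2.20 and −0.97. The clathrin adaptor YAP1802 had −2.28 and −0.72, and VPS501 had −1.54 and −0.68. VPS63 had −1.32 and −0.73, and in the gene table it overlaps YPT6, a Rab gene with 0.06 and −0.56. All 6 were lower on array 1, as were 64 of all 70 members.

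Transcription and chromatin gave 5 members. MOT1, an ATPase that removes the TATA-binding protein from DNA, had −3.0 and −0.89 (mean −1.94 ± 1.49, n = 2). FHL1, a regulator of ribosomal protein genes, had −1.70 and −1.85 (−1.78 ± 0.11). FHL1 was thus more than 3-fold negative on both arrays, while MOT1 was under 2-fold negative on array 2. USV1, a zinc finger transcription factor, had −1.43 and −1.09. HAT1, a histone acetyltransferase, had −1.62 and −0.67, and TFB3, a subunit of the general factor TFIIH, had −1.04 and −0.97.

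Genome maintenance held 5 members beside RMR1 and IRC20. APN2, an endonuclease that cuts at abasic sites, had −1.62 and −1.16 (mean −1.39 ± 0.33, n = 2). RAD53, the kinase of the DNA damage checkpoint, had −1.85 and −0.74. SRL4, a gene found as a suppressor of rad53 lethality, had −1.48 and −1.28. Of this pair, SRL4 had the closer arrays. SGS1, a helicase of the RecQ family, had −1.73 and −0.75, and RNH202, a subunit of ribonuclease H2, had −1.05 and −1.01. All 7 members of the group were lower on array 1, as were 64 of all 70 members.

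Cell cycle and division gave 4 members, with means between −1.34 and −1.10. SWE1, the kinase that restrains the cyclin-dependent kinase before mitosis, had −1.18 and −1.13, and its arrays differed by 0.05. LTE1, which promotes mitotic exit, had −1.94 and −0.60, the ratio on array 2 nearest to the limit on each array. SPC105, a kinetochore protein, had −2.03 and −0.65. IQG1, an organiser of the cytokinetic ring, had −1.41 and −0.79. None of the 4 met the limits after each array was centred on its median, against 31 of all 70 members. Centring shifts the same ratios that chose the members, so this count only restates how far past the limits they lay.

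RNA processing gave 4 members. RRP6, an exonuclease of the nuclear exosome, had −0.81 and −2.10 (mean −1.45 ± 0.91, n = 2), and −0.81 was the highest value of any member on array 1. The exonuclease REX3 had −2.04 and −0.62. RRP6 and REX3 therefore differed in which array carried the lower ratio. PUS6, a pseudouridine synthase, had −1.44 and −0.90, and UTP6, a component of the complex that processes small subunit ribosomal RNA, had −1.36 and −0.85.

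Membrane transport gave 3 members and other roles 11. DAL5, the allantoate permease, had −1.99 and −1.11, KHA1, a potassium and proton antiporter, −1.33 and −0.98, and PDR15, an ABC transporter, −1.47 and −0.74. The lowest of the others was PRY3, a cell wall protein of the CAP family, at −3.10 and −0.82 (mean −1.96 ± 1.61, n = 2). PRY3 was more than 8-fold negative on array 1 and under 2-fold on array 2. Of the rest, HAL1, a gene of salt tolerance, had −1.78 and −0.73, the prefoldin subunit YKE2 −1.45 and −1.17, and ALG5, which makes dolichyl-phosphate glucose, −1.28 and −0.80. UBX3, a partner of Cdc48, SCY1, a kinase-like protein, and DSD1, a D-serine dehydratase, had means of −1.39, −1.21 and −1.19. DOS2, MLO50, CPP2 and DFP2 had means of −1.71, −1.42, −1.14 and −1.12. All 11 were lower on array 1, as were 64 of all 70 members.

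A large share of the members carried no gene name, a property the rule did not use. Of the 70, 10 (14.3%) had no entry in the gene table, against 138 of 2738 (5.04%) of all features with both values and 3 of 113 (2.65%) of the positive ones. A further 13 (18.6%) were listed without a standard name, against 181 (6.61%) of all and 16 (14.2%) of the positive ones. Together 23 members (32.9%) had no name, against 319 (11.7%) of the features with both values and 19 (16.8%) of the positive ones. Among features with no value on either array, 663 of 2673 (24.8%) had no name, and among those with 1 value 96 of 796 (12.1%). On array 1 alone the share was 20.2% of the 357 features at −1 or less, and on array 2 alone 29.2% of 48.

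**Figure D3:**
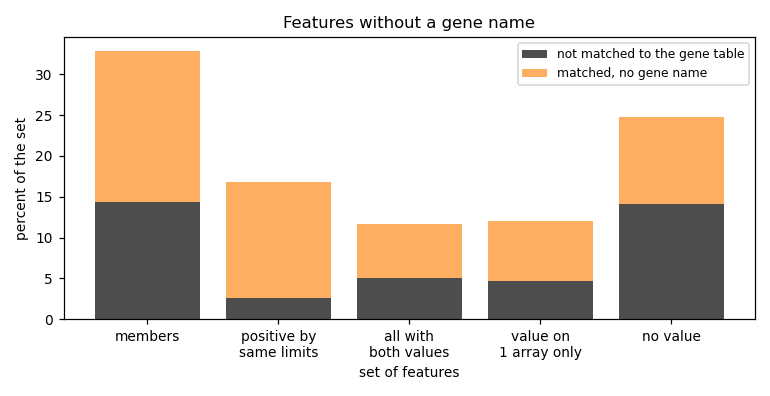
Percent of features without a gene name (vertical, from 0) among members, all features with both values, positive features, features with 1 value and features with none, split into features without an entry and features listed without a name. The members' bar, at 32.9%, is the tallest and that of all features with both values, at 11.7%, the shortest.

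The 13 members listed without a name had means from −2.85 to −1.14. After YGL193C and YOR296W came YLR460C at −2.34 and −1.34, YHR213W at −2.75 and −0.63 and YPR003C at −1.89 and −1.30. YDL109C had −1.24 and −1.25, the closest pair of any member, and YCR022C had −1.14 and −1.23. The others were YHR054C, YOR283W, YPR015C, YPL080C, YLR112W and YFR054C, with means from −1.34 to −1.14. In this group 9 of 13 met the limits after centring, against 31 of all 70 members. That count comes from the ratios that chose the members and only restates how far past the limits they lay.

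The 10 members without an entry had means from −2.69 to −1.02. After YCR049C and YBR178W came YCLX05C at −2.89 and −0.93, YML048W-A at −2.18 and −1.08 and YDR136C at −1.90 and −1.35. YDL032W, YML117W-A, YOL106W, YFL018W-A and YGR151C had means of −1.52, −1.14, −1.12, −1.05 and −1.02. Of the features with the next numbers, 6 had both values and none met the limits. Over all features with both values 2.81% met them, so this count is near that share and shows nothing particular. Beside YBR178W, EHT1 had 0.03 and 0.16 and FZO1 had −0.04 and −0.20. Beside YDL032W, DBP10 had −0.06 and −0.14, and beside YGR151C, RSR1 had −0.10 and −0.55. YCR050C, beside YCR049C, had −0.47 and −0.19, and YCF1, beside YDR136C, had −0.78 and −0.88.

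Chromosome XVI held more of the members than any other chromosome. By their systematic names 14 of the 70 (20.0%) lay on it, against 168 of 2738 features with both values (6.14%), 4 of 113 positive features (3.54%) and 476 of the 6207 features of the table (7.67%). These 14 were GYP5, MOT1, FHL1, YPR003C, SRL4, PPT2, RAD53, USV1, HAL1, YPR015C, YPL080C, HAT1, IQG1 and ALG5. They made up 8.33% of the chromosome's features with both values. The next highest share was 4.48%, on chromosome XII with 9 of 201, and chromosomes V and IX had none.

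The chromosome's features as a whole, members included, were slightly lower than those of the array. The median mean ratio of its 168 features was −0.37, against −0.24 over all chromosomes, with −0.37 on array 1 and −0.31 on array 2. Both values were present for 35.3% of its features, and this coverage ran from 25.6% on chromosome XIII to 74.0% on chromosome II. On array 1 alone, 11.5% of the features at −1 or less lay on chromosome XVI, and on array 2 alone 16.7%. The count of chromosomes compared was 16, and chromosome XVI was picked out after its values were seen.

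**Figure D4:**
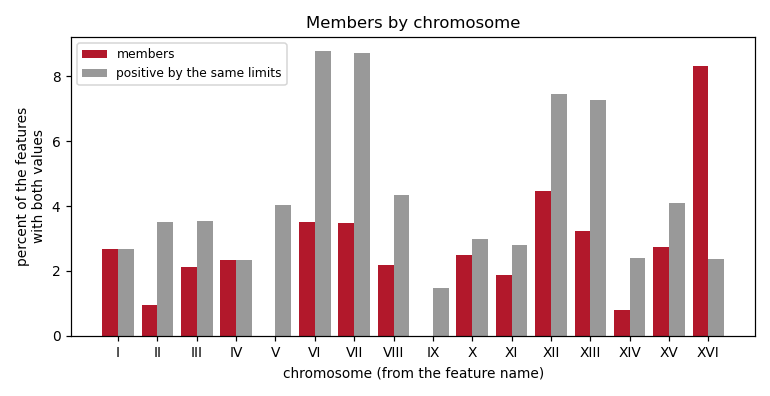
Percent of each chromosome's features with both values that were members or were positive by the same limits (vertical, from 0), for the 16 chromosomes by systematic name. On chromosome XVI 8.33% were members and 2.38% were positive.

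Of the 60 members found in the gene order, 0 had another member as the next protein-coding gene on either side. Members were 2.56% of the features with both values, so a count of 0 is near that share and shows nothing particular to the members. In 2 cases the neighbour was a feature left out by name: FAS2, a fatty acid synthase subunit at −2.12 and −2.62, lies next to USV1, and MTH1, a regulator of glucose signalling at −2.40 and −0.98, next to RNH202. The other 55 neighbours with both values had a median mean of −0.35, from −1.45 for PFA5 beside TFB3 to 0.86 for PMT2 beside LTE1. Of them 35 (63.6%) were below 0 on both arrays, against 54.5% of all features. The rule chose members for low ratios and did not choose their neighbours, so a member lower than its neighbours is no finding. As examples, the neighbours of IRC20 had means of −0.43 (ERF2) and −0.01 (RCK2). Those of FRE6 had −0.41 (AQY2) and −0.18 (COF1).

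Members were spread thinly over 36 lists of genes by pathway or complex, which hold 2577 matched symbols. In these lists 25 members appeared and 45 were in none. There were 19 lists with 0 members, 10 with 1, 6 with 2 and 1 with 3. Over all features with both values the members' share was 2.56% (2.81% with the features left out by name), so lists of this size would hold few members at that share. The list counts were not tested, and none is read as a trait of its list. The cell wall integrity list had 0 members among 18 measured genes: 3 genes were positive by the limits of size, and the 1 negative gene was GSC2, the glucan synthase subunit left out by name, at −0.94 and −1.5. The list's median mean was 0.14, against −0.24 over all features. Apart from GSC2, its lowest gene was RLM1, at −0.86 and −0.6, and its highest was PIR3, at 3.39 and 1.15.

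DNA repair and checkpoint genes held 3 members, APN2, RAD53 and SGS1, among 26 measured (11.5%, against 2.56% over all features), with 0 positive by the limits and a median of −0.32. The highest of its other genes was RAD23, a nucleotide excision repair factor at 0.53 and 0.62. The lowest was MSH1, a mitochondrial mismatch repair protein at −3.58 and −0.20, which missed the limit on array 2. The list of DNA replication and cohesion genes had 0 members among 36 measured.

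RNA polymerase II, general factors and Mediator held MOT1 and TFB3 among 39 measured genes (5.13%), with a median of −0.25. The highest, SPT16, a histone chaperone subunit, was positive at 1.51 and 1.68, and the lowest other gene was the Mediator subunit MED2 at −1.81 and 0.12. Secretory vesicles, SNAREs and tethers held GYP5 and COG8 among 49 (4.08%; median −0.32), with PEP12, an endosomal SNARE, at −2.05 and −0.32 and the tether subunit TRS23 at 0.95 and 0.11. Vacuolar sorting and endocytosis held YAP1802 and VPS63 among 46 (4.35%; median −0.29), with APM1, a clathrin adaptor subunit, at −2.67 and −0.41 and the endocytic adaptor ENT2 at 0.35 and 1.28. PEP12 stands in both of the last lists and was past the mean limit but not the limit on array 2.

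Cyclins and cell cycle control held LTE1 and SWE1 among 28 genes (7.14%; median −0.24), and its lowest and highest other genes were the cyclins PCL2, at −1.83 and −0.21, and CLN3, at 0.27 and 0.62. The list of mitochondrial genome, RNA and translation factors also takes in HEM and COQ genes. It held COX23 and CBP1 among 33 (6.06%, median −0.33). Its lowest other gene was MSS51, a translational activator of COX1, at −5.20 and 1.05, and its highest was AIM3 at 0.48 and −0.09. Osmotic stress and ion homeostasis held HAL1 and KHA1 among 27 (7.41%; median −0.23), with the response regulator SSK1 at −1.05 and −0.51 and MSB2, an osmosensor mucin, at 0.47 and 2.04. PCL2 and MSS51 were past the mean limit through array 1. Iron, copper and zinc genes held FRE6 alone among 28 (3.57%), and the lowest and highest of the others were the mannoproteins FIT1, at −2.05 and 0.57, and FIT3, at 0.99 and 0.80.

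**Figure D5:**
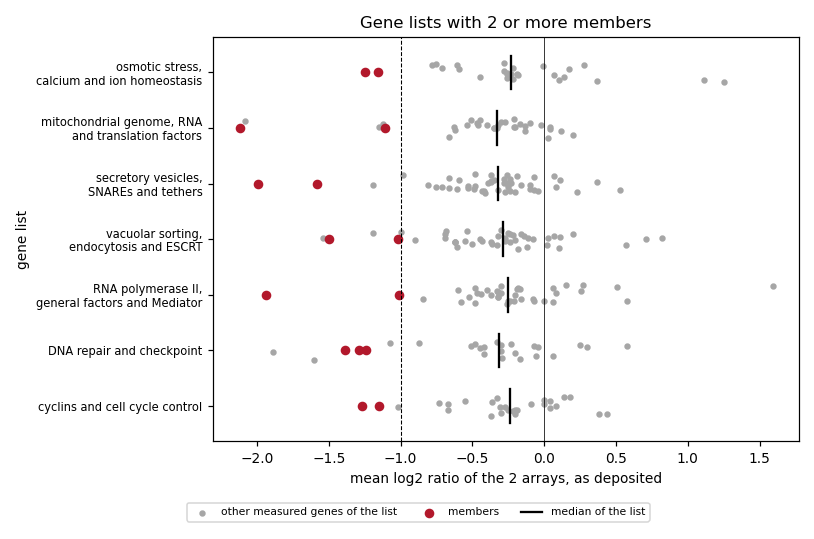
Mean log2 ratio of the 2 arrays (horizontal) for each measured gene of the 7 lists with 2 or more members, with members in red, other genes in grey and the list median as a vertical bar. Members sit at −1 or below while list medians lie between −0.33 and −0.23.

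At the share of 2.56% over all features lists of this length would hold about 1 member or fewer, and the empty ones are named for completeness. They included mating with 21 measured genes, meiosis with 21, autophagy with 14, nuclear pore with 22, ubiquitin with 43, mitochondrial import and carriers with 50 and the seripauperins with 18. Splicing had 0 members among 36 although 29 of its genes were below 0 on both arrays and its median was −0.42. Of all 2738 features, 1491 were below 0 on both arrays and 435 above 0 on both.

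The limits cut through a continuous range of values, and 28 members lay within 0.25 of the mean limit. Just inside it were ALG5 with a mean of −1.04, RNH202 with −1.03, VPS63 and YGR151C with −1.02 and TFB3 with −1.01. Just outside were SGF73 with −0.999, YBR116C with −0.985, BOS1 with −0.982, MHT1 with −0.975 and POM34 with −0.973. Another 74 features were past the mean limit but not past the limit on each array, 73 of them through array 2. Of these, KEL1 had −8.38 and 0.44, DBP8 −5.52 and 0.08 and DAS1 −4.96 and −0.29, and 9 were positive on array 2. Closest to joining were UBC12 at −1.51 and −0.58, RTC4 at −1.76 and −0.57 and YLL056C at −2.56 and −0.56, and closest to leaving were DOS2, YLR112W and LTE1, at −0.62, −0.61 and −0.60 on array 2.

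Membership depended on where 0 was set. When each array was centred on its median, which raises every mean by 0.22, 35 features met the limits (1.28%). Of these 31 were members, 4 were features left out by name and 0 were new, so 39 members no longer met the limits. The members' median mean moved from −1.34 to −1.11. Among features past the limits in either direction, positive ones made up 59.5% as deposited and 82.2% after centring. Of the 31 members that stayed, 13 had no gene name (41.9%) and 9 lay on chromosome XVI (29.0%).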

How the data were processed

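The authors deposited 1 table of log2 ratios, with 1 column for each array, and the log base was inferred from the numbers themselves. For channel order, scanner, normalization, filters and genome build the entry is "not given in the sources used here", and signal over background is unknown. The labels' protocols describe cultures and dye swaps without saying whether these 2 arrays hold 1 culture or more.

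The control features (3XSSC, Arabidopsis) did not enter. Ratios were used as deposited. Names were matched to the RefSeq genes of assembly R64, which served for naming and for gene order: 5654 features matched and 553 did not, and 12 list symbols were not matched. All features with both values were tested against 0, two-sided, by limma 3.58.1 (lmFit, eBayes, R 4.3.3) with Benjamini-Hochberg adjustment. The step was run on simulated data whose noise was equal on both arrays and smaller than the real spread between them. That run therefore does not show how many changes the fit could find in these data. Other steps used Python 3.11.15 and matplotlib 3.10.9.

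The members, lists, markers and limits were chosen with earlier results of these data known. The naming rule gave array values for the 12 lowest means, members of lists with 2 or more, 5 features on each side of the mean limit, the 3 closest and 3 widest array pairs, and the highest and lowest other gene of lists spoken of. Other genes were named after their values were seen. Alternatives were centring, scaling, quantile normalization, other limits, each array alone and ratios read as never turned. Promoter letters and protein lengths were planned and were not analysed here.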

Additional observations from a re-analysis of the deposited data

How the results depend on the processing

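The count of 77 negative features became 35 after centring, 30 with a mean of −1.5 or less, 142 with each ratio below 0 and 26 with each ratio −1 or less. With 1 array left out it ranged from 48 to 357. It was 88 after scaling, 101 after quantile normalization and 104 with a mean of −0.8 or less. Of the 70 members, 69 met the limits after scaling, 70 after quantile normalization, 25 were at −1 or less on array 2 alone and 69 on array 1 alone. If the ratios had never been turned, the effect would be the difference array 2 minus array 1 divided by 2. Read so, 7 features met the limits and 0 were members, and the members' median was 0.42 against −1.34, ranging from −0.83 to 2.63, with 10 members at 1 or more. Under the other alternatives that median lay between −1.71 and −0.89. The count past limma of 0 became 371 at an unadjusted p under 0.05 and was 0 with centring and with robust moderation. The share without a name was 32.9% of the members and 41.9% of those that met the limits after centring. Among all features at −1 or less on 1 array alone it was 20.2% for array 1 and 29.2% for array 2. The share on chromosome XVI was 20.0%, and between 11.5% and 29.0% under its alternatives, 22.1% with the features left out by name. The share matched to the gene table was 85.7%, and 87.1% after centring. No paired analysis was possible because the 2 arrays form 1 group. Protein length was not run, since no protein table was used here. With 2 arrays and no intensities, neither the precision of a single ratio nor the part of background in it could be judged.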

Other observations

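Features with a value on 1 array alone could not be members, and many of them were negative. Of 94 features measured on array 1 alone, 57 (60.6%) had a log2 ratio of −1 or less, against 13.0% of the features with both values on that array. Of 702 measured on array 2 alone, 156 (22.2%) were at −1 or less, against 1.75% of the features with both values. Why the other cell is empty is not given in the sources used here.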
